A study of Mus musculus with 12 samples.

Results

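Resting translation was described in PBS-treated KPC cells, a mouse pancreatic ductal adenocarcinoma (PDAC) line derived from mice in which Cre under the Pdx1 promoter (Pdx1-Cre) switches on mutant alleles in the pancreas, among them Trp53 LSL-R172H. Ribosome profiling and RNA-seq were each done in 2 libraries of these cells, and these 4 libraries of 12 in the series were used. The other 8 libraries came from the same cells given Cis (cisplatin) for 6 or 21 h and served only as a comparison at the end. The labels call the PBS cells untreated, the study's methods give PBS for either 6 or 21 h without saying which applies to these libraries, and whether the 2 libraries came from separate cultures is not given, so the p-values below measure the spread between libraries, which may be technical. In all, 15803 transcripts had a read in some library, 1 representative transcript per gene, and the members were the 10061 with at least 10 RNA-seq reads over both PBS libraries.

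Footprints are the fragments of mRNA that a ribosome shields from RNase, and their density is their number per length of coding sequence. The ratio of footprint density to RNA level, the translation efficiency (TE), therefore compares mRNAs by ribosome density per unit of RNA. It does not give the number of ribosomes on a molecule. Ribosomes usually enter at the capped 5′ end and scan the 5′ leader to the start codon, and structure or upstream open reading frames (uORFs) in the leader are known to hold them back.

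The footprint libraries held 5204127 and 4661014 reads and the RNA-seq libraries 2462084 and 2901692. A share of 54.5% and 53.8% of the RNA-seq reads lay on the transcripts of Lars2, Tmem38b and Mettl26, leaving 1119096 and 1341584 for all other genes. The median member had 282 footprints and 102 RNA-seq reads, so the RNA level was the less precise side of the ratio. The RPKM values (reads scaled by the kilobases they were counted over and by the library total) counted footprints over the coding sequence and RNA-seq reads over the whole transcript. Since library totals set the level of any such ratio, every TE below is relative to the median gene and on the log2 scale unless a fold is named. Exact permutation of 2 and 2 libraries can reach no two-sided p smaller than 0.333, and the adjusted p-values given here therefore rest on limma's model across all genes.

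Markers of epithelial cells bore out the label in part. Krt8, a keratin of simple epithelia, had 36865 and 32060 footprints and 2795 and 3049 RNA-seq reads. Krt18, Krt19 and the adhesion gene Cdh1 were also read more than 400 times in every library. Krt7 had fewer, with 146 and 140 footprints and 19 and 14 RNA-seq reads. Epcam, another epithelial gene, had only 9 and 3 footprints and 0 and 1 RNA-seq reads. The acinar, fibroblast, leukocyte and endothelial markers (14 genes) had at most 11 footprints and 4 RNA-seq reads in any library.

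Several leader sequences bear on the genes described below. Each is 30 bases of genomic sequence near a transcript start in RefSeq (build GRCm38.p6), written 5′ to 3′. The first group comes from mRNAs of the list with regulatory uORFs, and the capitals mark an upstream ATG, or in Amd1 the whole uORF through its stop codon.
Amd1 (chr10:40302152-40302181, minus strand): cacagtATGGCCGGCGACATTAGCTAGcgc
Ddit3 (chr10:127290813-127290842, plus strand): acacgtcgattatatcATGttgaagatgag
Ppp1r15a (chr7:45526219-45526248, minus strand): aagccgcgtggacgATGttggcgcagattg
Mief1 (chr15:80234100-80234129, plus strand): gaggggccATGttgatgggtgacccggaga
Ifrd1 (chr12:40223140-40223169, minus strand): tagagagaaacATGtatcgtttccgctcgc
The uORF of Amd1 starts at base 14 of the transcript and holds 6 codons before its stop. The ATG shown is at base 37 in Ddit3, 35 in Ppp1r15a, 29 in Mief1 and 32 in Ifrd1, and no stop in frame with it was found within the first 50 bases. The second group comes from mRNAs known for a 5′ terminal oligopyrimidine (TOP) tract, the run of C and T at the cap that marks most ribosomal protein mRNAs. Capitals mark the longest pyrimidine run with a C first that lies near the RefSeq start. Counted from that start, the run begins at base 3 in Rpl13a, -2 in Rps10 and -4 in Eef1a1, so none begins exactly at it.
Rpl13a (chr7:45128722-45128751, minus strand): cgacaagaCCTCCTCCTTTCCCaggcggct
Rps10 (chr17:27635226-27635255, minus strand): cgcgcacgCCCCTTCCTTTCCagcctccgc
Eef1a1 (chr9:78481708-78481737, minus strand): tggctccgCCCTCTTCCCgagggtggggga

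TE differed widely between genes, and the differences were repeated by the 2 pairs of libraries. A gene at the 95th percentile had 12.1 times the TE of a gene at the 5th, and the quartiles were 2.60-fold apart. Most genes, 67.3%, lay within 2-fold of the median gene, while 1559 lay more than 2-fold above it and 1733 more than 2-fold below. TE from the first pair of libraries (replicate number 1 in both assays) correlated with TE from the second at a Pearson's r of 0.907 across the 10061 genes, and at 0.970 across the 5097 genes with at least 100 RNA-seq reads. These are correlations across genes, which are not independent replicates. The median difference between the pairs was 0.27, and 0.19 for the deeper genes. limma with Benjamini-Hochberg adjustment over all genes placed 3082 genes (30.6%) above and 2837 (28.2%) below the median gene, and 6388 had an unadjusted p under 0.05. These shares are the background for every list below.

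Among the members, footprint density spread more than RNA level. The SD of log2 RPKM (scaled, with the pseudocount added) was 2.34 for footprints and 1.88 for RNA. The 2 measures correlated at a Pearson's r of 0.866 across genes. Members were chosen by their RNA-seq reads, which cuts off low RNA levels but not low footprint densities (88 members had no footprint). This choice favours a wider spread of footprints, so the SDs do not tell which measure spreads more over all transcripts. To set TE against the RNA level without using the same library on both sides, TE from one pair was sorted by the RNA-seq library of the other. Genes in the lowest quintile of RNA level had a median TE of -0.33 and -0.29 (both ways round) and those in the highest quintile 0.42 and 0.43, with a Spearman's rho of 0.21 and 0.19. Among the members, more abundant mRNAs thus had a higher footprint density relative to their RNA. The limit of 10 reads was set on both RNA-seq libraries together, so at the low end the swap does not fully part the 2 sides. It also left out 868 transcripts with at least 10 footprints. The fourth quintile of RNA level had a median TE of 0.05 and 0.06. Genes just outside the limit, with 9 RNA-seq reads (136 genes), had a median of -0.23, and those just inside, with 10 (102 genes), -0.19.

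**Figure D1:**
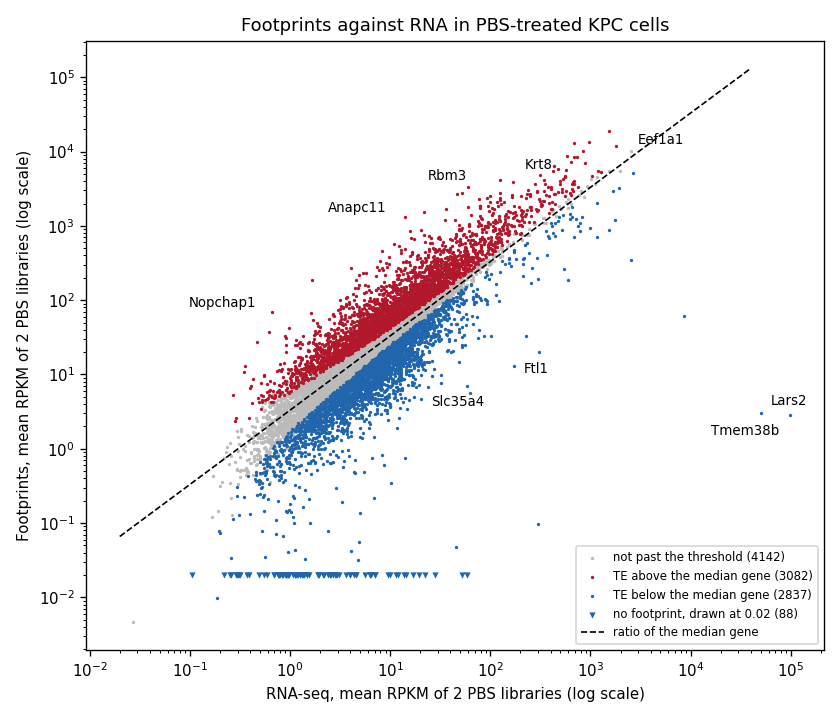
Mean RPKM of footprints (vertical, log scale) against mean RPKM of RNA-seq (horizontal, log scale) in the 2 PBS libraries of each assay, 1 point per gene, with the ratio of the median gene as a dashed line and genes past limma's threshold in red (3082 above) and blue (2837 below). Lars2 and Tmem38b stand alone at the highest RNA-seq RPKM with almost no footprints, and the 88 genes without a footprint are drawn as triangles at the bottom.

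On the ratio of RPKM, coding length had the strongest relation with TE of the 3 lengths, an order that reversed when reads were compared without lengths. Spearman's rho between TE and coding length was -0.421 in the first pair of libraries and -0.396 in the second. The shortest quintile of coding sequences (median 531 bases) had a median TE of 0.69 ± 0.013 (SD, n = 2 pairs), and the medians of the next quintiles were 0.30, 0.08, -0.18 and, for the longest (3580.5 bases), -0.63 ± 0.025. The quintiles never changed order between the pairs. Of the shortest quintile 56.3% lay above the median gene and 15.6% below, and of the longest 5.57% above and 49.8% below.

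The 5′ leader had a weaker relation, seen mainly at the long end. Its rho was -0.078 and -0.092, the first 4 quintiles of leader length had medians between -0.01 and 0.11, and the longest quintile (median 484 bases) had -0.27 ± 0.062. In that quintile 37.6% of the genes lay below the median gene. The 3′ UTR had a rho of 0.070 and 0.058, with medians of -0.03 in the shortest quintile and 0.12 in the longest. In a linear fit on log2 of the 3 lengths together, each doubling went with a TE change of -0.41 ± 0.017 for the coding sequence, -0.033 ± 0.005 for the leader and 0.086 ± 0.004 for the 3′ UTR, and the fit held 14.2% of the variance of TE.

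Both lengths of the ratio enter these relations by construction, because footprints were divided by the coding length and RNA-seq reads by the transcript length. Counted as footprints per RNA-seq read, with no length, the rho became -0.219 for the leader, -0.097 for the coding sequence and -0.385 for the 3′ UTR. The sign for the 3′ UTR thus turned, the leader and the coding sequence stayed negative, and the coding sequence now had the weakest relation and the 3′ UTR the strongest. This scale is not free of length either. A longer leader or 3′ UTR adds RNA-seq reads but no counted footprints, and so lowers the value by construction. The same limit holds for every value per RNA-seq read below. The linear fit on the 3 lengths together, made on that scale, gave -0.0245 ± 0.017 per doubling of the coding sequence. The leader had -0.055 ± 0.0055 and the 3′ UTR -0.173 ± 0.0043, and the fit held 7.79% of the variance. On the ratio of RPKM the highest quintile medians were seen where a short coding sequence met a long 3′ UTR: within the shortest quintile of coding length, genes with the longest 3′ UTRs had a median of 1.16 and those with the shortest 0.46. In the longest quintile of coding length the corresponding medians were -0.66 and -0.65.

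**Figure D2:**
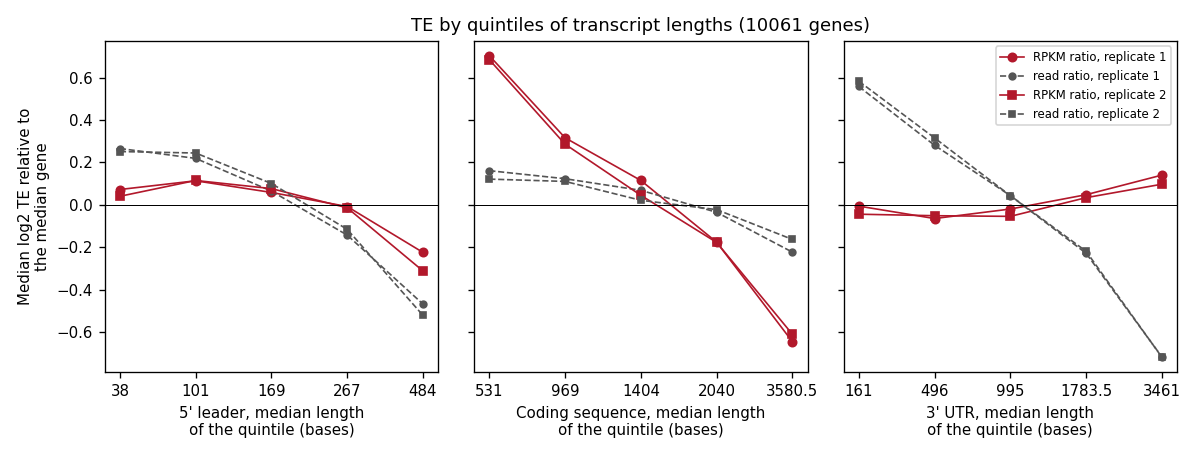
Median log2 TE relative to the median gene (vertical) in quintiles of 5′ leader, coding sequence and 3′ UTR length (horizontal, labelled with the median length of each quintile in bases), with 1 line per replicate number, for the ratio of RPKM (red) and the ratio of reads without lengths (grey, dashed). The RPKM ratio runs from 0.69 to -0.63 over the quintiles of coding length, and the lines for the 3′ UTR run in opposite directions.

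The base composition at the cap end also went with TE. RefSeq gave a single promoter window for 6472 of the 10061 members (64.3%), matched by symbol, and the first 50 transcribed bases of that window were used. The RefSeq start need not be the start of the transcript in the files. In the lowest quintile of GC content (12 to 58%) the median TE was 0.22, with 38.1% of genes above the median gene and 20.2% below. In the highest quintile (76 to 94%) it was -0.37, with 20.6% above and 41.9% below. The low-GC genes were also higher within every quintile of coding length, from 0.79 against 0.35 in the shortest to -0.39 against -0.92 in the longest.

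An ATG in the first 50 bases went with a lower TE. Among 5385 members with a leader of at least 60 bases and a single promoter window, 1366 (25.4%) had such an ATG, and 44.3% of all 32851 RefSeq windows did. The genes with it had a median TE of -0.05, with 28.3% above the median gene, and those without it 0.07, with 32.8% above. Sorted by leader length, the genes with an ATG were lower in each of 4 classes, with medians of 0.13 against 0.21 for leaders from 60 to 119 bases and -0.39 against -0.24 for those of 400 or more.

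A pyrimidine run near the start was common in ribosomal protein genes. A run of 8 pyrimidines whose first is a C, starting anywhere from 20 bases before to 30 bases after the RefSeq start on the transcribed strand, was found in 65.3% of 49 ribosomal protein genes, in 15.7% of 6472 members and in 16.6% of all windows. Members with the run had a median TE of 0.0008 and those without it 0.06. Within the ribosomal protein genes the medians were 0.25 with and 0.06 without it, but a pyrimidine tract exactly at the RefSeq start (a C and 4 more pyrimidines, in 2.51% of all windows) went the other way, with 0.09 for the 10 genes that had it and 0.21 for the rest.

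**Figure D3:**
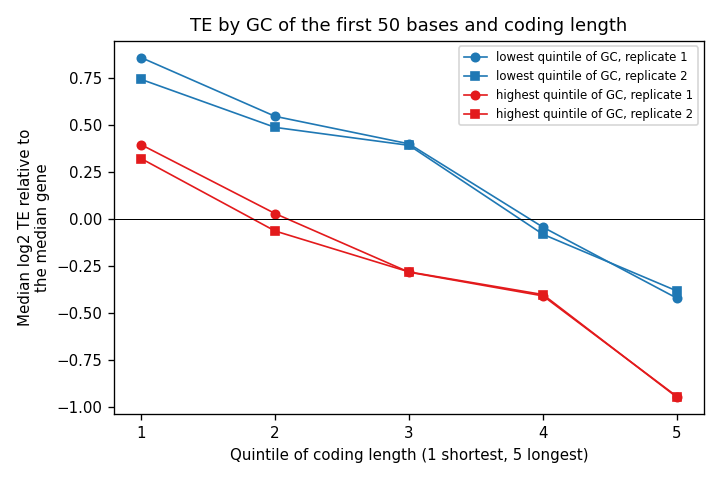
Median log2 TE relative to the median gene (vertical) by quintiles of coding length (horizontal, 1 shortest, 5 longest) for genes in the lowest (blue) and highest (red) quintile of GC content over the first 50 transcribed bases, with 1 line per replicate number. Low-GC genes lie above high-GC genes in all 5 classes, from 0.79 against 0.35 in the shortest to -0.39 against -0.92 in the longest.

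The genes with the highest TE coded for small proteins. Of genes with at least 100 RNA-seq reads, the 10 highest were Anapc11, Nopchap1, Gtf2h5, Rbm3, Sub1, Mrpl35, H4f16, Sem1, Banf1 and Eny2, whose coding sequences had 210 to 564 bases. Anapc11, a subunit of the anaphase-promoting complex, had 1507 and 1124 RPKM of footprints and 14.5 and 13.7 RPKM of RNA, a TE 27.5-fold above the median gene (log2 4.78, SE 0.14, adjusted p = 3.3e-06). Rbm3, the cold-inducible RNA-binding protein, had 3409 and 3324 RPKM of footprints on 59.5 and 59.4 RPKM of RNA, 17.0-fold above the median gene. Gtf2h5, a TFIIH subunit, was 21.0-fold above it, and Sub1, a transcriptional coactivator, 17.0-fold. Banf1, which binds DNA at the nuclear envelope, and Eny2, a component of the SAGA coactivator, were 13.7-fold and 13.0-fold above.

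Annotated 3′ UTRs weighed on the order of these genes. Nopchap1 was measured on a transcript with a 3′ UTR of 122583 bases, so its 197 and 245 RNA-seq reads gave only 0.650 and 0.685 RPKM. Its TE was 25.1-fold above the median gene, but per RNA-seq read, with no length, its footprints lay below the median gene (log2 -1.86). The other 9 stayed above the median gene on that scale, for example Rbm3 at 2.49, Anapc11 at 2.11 and Eny2 at 1.39. Over all genes, 2603 of the 3082 called above (84.5%) and 2656 of the 2837 called below (93.6%) stayed on their side per RNA-seq read. Of 191 genes past the threshold that the naming rule took in, 20 lay on the other side on that scale, and those among them named below are given with that value.

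At the other end stood genes with many RNA-seq reads and hardly any footprint. Lars2, the mitochondrial leucyl-tRNA synthetase, had 953121 and 1113474 RNA-seq reads and only 51 and 27 footprints, and Tmem38b, an ion channel of the endoplasmic reticulum (ER), had 362952 and 416655 RNA-seq reads with 12 and 14 footprints. Mettl26 had 26915 and 29979 RNA-seq reads and 208 and 164 footprints. They were 3 of the 4 lowest among genes with at least 100 RNA-seq reads, with log2 TE of -16.61, -15.56 and -8.85. Whether the RNA-seq reads on Lars2, Tmem38b and Mettl26 came from the mRNAs of these genes was not tested, so their TE may not describe those mRNAs. Rnf225 had 2451 and 2703 RNA-seq reads and 1 footprint in all, and Xpnpep2 299 and 485 RNA-seq reads and 1 footprint.

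The other 5 of the lowest 10 had no footprint, so that only a bound can be given, set at 3 footprints in each library. Fam167a was at least 183-fold below the median gene with 579 and 602 RNA-seq reads. Olfr477, an olfactory receptor gene, was at least 113-fold, Gm20431 at least 118-fold and Cd59a, which codes for a complement regulator, at least 55.6-fold below it. Rps27rt was at least 78.9-fold below with 39 and 80 RNA-seq reads, but it is a near copy of Rps27 and its reads may be shared with it. In all, 88 members had no footprint and 149 had at most 3 in each library. Conversely, 868 transcripts outside the members had at least 10 footprints but fewer than 10 RNA-seq reads.

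The genes with the most footprints were not those with the highest TE. Eef1a1, the elongation factor that brings tRNAs to the ribosome and whose pyrimidine run is shown above, led with 68054 and 72079 footprints. Its TE of 0.29 (SE 0.11, adjusted p = 0.062) did not pass the test. Next came mt-Co1, Ldha, Hsp90ab1, Krt8, Hnrnpa3, Actb, Vim, Hspa8 and Pkm. Of these, Hnrnpa3 (1.60), Krt8 (1.35), Ldha (1.26), Vim (0.74), Pkm (0.65), Actb (0.32) and Hspa8 (0.26) lay above the median gene, mt-Co1 lay below (-0.81, but 0.19 per RNA-seq read), and Hsp90ab1 had 0.09 (adjusted p = 0.45). Actb and Hspa8 missed the threshold without some of the libraries, and mt-Co1 without the first RNA-seq library.

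Proteins that process pre-mRNA had the highest median TE of the 26 gene lists on the ratio of RPKM. Of 32 SR proteins and hnRNPs, which bind and splice nascent transcripts, 24 lay above the median gene and 2 below, with a median of 1.31 ± 0.014 (SD, n = 2 pairs) against 0 for all genes. They took 2.91% and 3.08% of all footprints and 1.48% and 1.54% of the RNA-seq reads left without Lars2, Tmem38b and Mettl26. Hnrnpr had the highest TE (3.10, but on a 3′ UTR of 19419 bases and 0.65 per RNA-seq read) and Hnrnpul1 the lowest (-2.01). The median per RNA-seq read was 1.03, which was not the highest, since the 9 PDAC drivers and keratins had 1.04 on that scale.

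Translation and mitochondrial genes fell on both sides. Of 78 mitochondrial ribosomal proteins, which are coded in the nucleus, 56 lay above and 4 below (median 0.92 ± 0.006, or 0.38 with the relation with the 3 lengths taken out), from Mrpl35 at 4.05 to Mrps15 at -1.34. Nuclear genes of the respiratory chain and ATP synthase had 56 above and 7 below of 78 (median 0.71, or 0.22 with the lengths taken out), from Atp5md at 3.53 to Ndufs7 at -2.05. By contrast, of the 10 respiratory chain mRNAs coded in the mitochondrial genome 0 lay above and 8 below, with a median of -0.97 that became 0.02 per RNA-seq read. Their lowest member was mt-Nd1, a complex I subunit, with 1611 and 930 footprints on 1270 and 1504 RNA-seq reads (-2.79).

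Cytoplasmic ribosomal proteins showed no common TE. Of 46 of the large subunit 21 lay above and 14 below (median 0.21 ± 0.10), and of 31 of the small subunit 11 above and 15 below (median -0.23 ± 0.099). Once the relation with the 3 lengths was taken out the medians became -0.21 and -0.53, and the small-subunit median became 0.21 per RNA-seq read. Rpl37 (2.54) and Rps15a (3.31, on a 3′ UTR of 4728 bases) were highest. Rpl13a, with 69 and 56 footprints on 121 and 118 RNA-seq reads, was lowest in the large subunit (-2.75). Rps10 had 0 footprints and 17 and 9 RNA-seq reads, at least 19.3-fold below the median gene.

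Many ribosomal protein genes have processed pseudogenes with which reads can be shared, and how such reads were counted is not given in the sources used here. Of the 60 with a pseudogene named after them in RefSeq 40.0% lay below the median gene (median TE 0.10), against 22.2% of the 18 without (median 0.24), and the part of shared reads was not tested. Over all members the order was the other way round, with a median of 0.37 for the 288 genes with a named pseudogene (49.3% above the median gene, 25.0% below) and -0.0085 for the 9773 without (30.1% above, 28.3% below). The same limit holds for Gapdh, tubulins and histones named below.

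Among the other TOP mRNAs 8 of 13 lay above and 3 below (median 0.45). Btf3, a subunit of the nascent chain-binding complex, was highest (1.88), and Npm1, a nucleolar histone chaperone, was at 1.30. Eif3h (-0.97) and Rack1 (-0.28, but 0.11 per RNA-seq read) lay below. The lowest was Pabpc1, the poly(A)-binding protein, with 1832 and 1727 footprints on 3933 and 5163 RNA-seq reads and a TE of -3.39 (SE 0.09, adjusted p = 2.64e-06). Initiation factors had 21 above and 4 below of 38 (median 0.47), from Eif1ax (3.35) to Eif3h (-0.97). Eif1ax was measured on a 3′ UTR of 4515 bases and had 0.78 per RNA-seq read. The list of elongation factors, which also took in Eef1e1 (highest, at 2.03), had 5 above and 2 below of 11 (median 0.29). Among its members were Eif5a, which helps ribosomes past difficult peptide bonds, at 1.52 and Eef2, the translocation factor, at -0.89. Of 20 aminoacyl-tRNA synthetases 7 lay above and 3 below (median 0.27), with Tars at 1.02 and Qars at -0.70 (0.01 per RNA-seq read).

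Protein folding and turnover lay on the high side. Of 26 ER chaperones and translocon genes 20 lay above and 0 below (median 0.69 ± 0.011). Dad1, a subunit of the oligosaccharyltransferase, was highest (4.26), but on 40 and 36 RNA-seq reads and a 3′ UTR of 3077 bases (1.92 per RNA-seq read). Hspa5, the main ER chaperone (BiP), had 8994 and 8451 footprints on 732 and 976 RNA-seq reads, 3.14-fold above the median gene. Sec61b had the lowest value, -0.63 (adjusted p = 0.14). Of 36 proteasome subunits 25 lay above and 2 below (median 0.67 ± 0.016), from Psma2 (2.74) to Psmd8 (-0.55). The CCT chaperonin, which folds actin and tubulin, had 5 above and 1 below of 8 (median 0.38), led by Cct4 (1.26).

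Metabolic and structural lists were mixed. Glycolytic enzymes had 10 above and 2 below of 16 (median 0.58), with Aldoc (2.06) at the top and Gapdh (-0.99) at the bottom. Ldha, which turns pyruvate to lactate, Gpi1, Pfkp and Tpi1 were all between 1.13 and 1.26. Of 10 tubulins 4 lay above and 2 below, with Tuba4a at 1.23 and Tuba1b at -1.66. Integrins, laminins and collagens (a list matched by symbol, which also took in the integrin-binding Itgb1bp1) had 7 above and 6 below of 29, and their median of -0.10 became 0.57 with the relation with the 3 lengths taken out and 0.39 per RNA-seq read. Their coding sequences were long, with a median of 3579 bases against 1404 for all genes.

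Cell cycle and transcription factor lists also differed. A list of 34 cyclins, cyclin-dependent kinases and related mitotic genes had 18 above and 4 below (median 0.37), from the checkpoint gene Mad2l1 (3.47) to the proliferation marker Mki67 (-1.36). Mad2l1 was measured on a 3′ UTR of 6802 bases and had 0.87 per RNA-seq read. Replication-dependent histones had 28 above and 9 below of 52 (median 0.64, or 0.27 with the lengths taken out), from H2ac6 (4.93 on 11 and 11 RNA-seq reads) to H2ac18, which had no footprint on 22 and 15 RNA-seq reads. Whether the RNA-seq libraries selected polyadenylated RNA, which replication-dependent histone mRNAs lack, is not given in the sources used here. Zinc finger proteins named Zfp had 24 above and 76 below of 232 (median -0.45 ± 0.074). Immediate early and short-lived transcription factors had 7 above and 6 below of 25, with a median of 0.09 that became -0.53 per RNA-seq read. Jund, an AP-1 subunit, was lowest with 106 and 102 footprints on 143 and 186 RNA-seq reads (-2.53). Id3 was highest (1.54), but on only 6 and 4 RNA-seq reads.

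**Figure D4:**
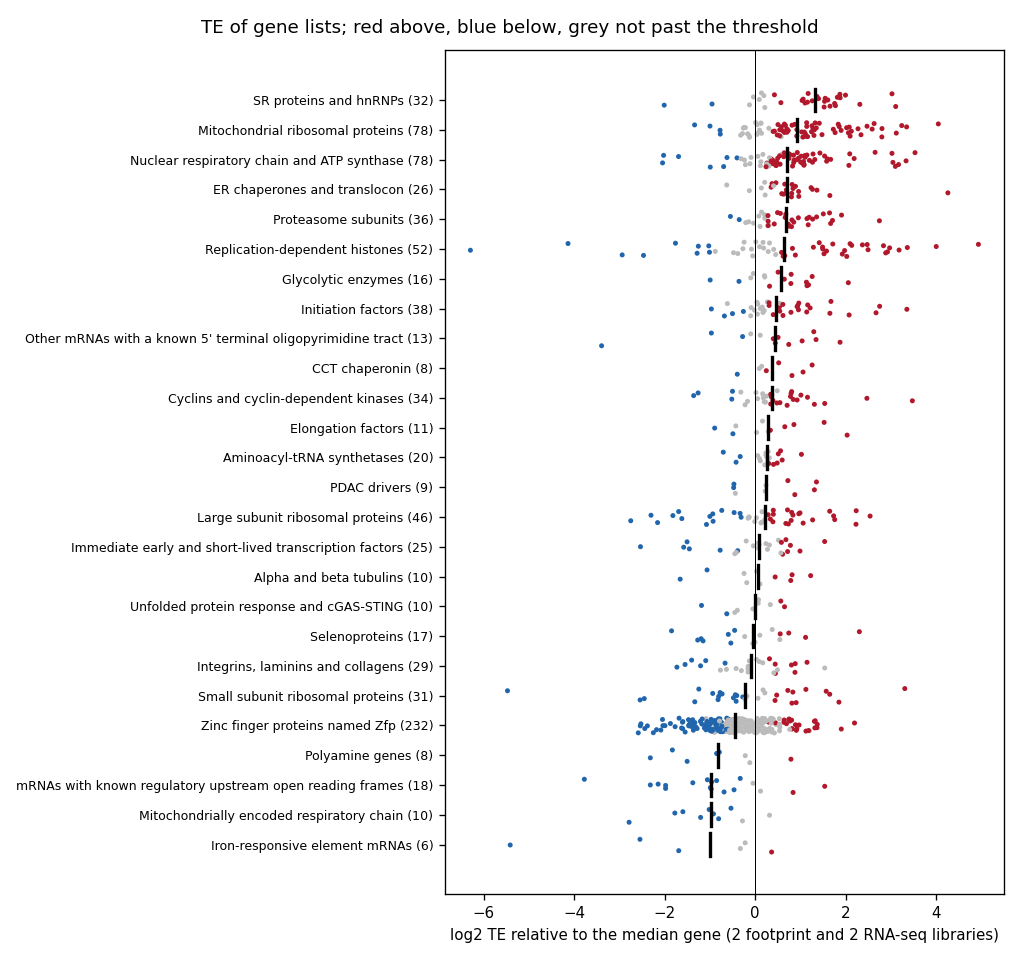
Log2 TE relative to the median gene (horizontal) of each measured member of the 26 gene lists (vertical, number of members in brackets), with red for members above the median gene, blue for those below, grey for those not past limma's threshold, and a black bar at the median of the list. The medians run from -1.01 for mRNAs with iron-responsive elements and -0.97 for mitochondrially encoded mRNAs and mRNAs with uORFs to 1.31 for SR proteins and hnRNPs.

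The mRNAs with known regulatory uORFs lay at the low end. Of 18 measured, 14 (77.8%) lay below the median gene and 2 above, with a median of -0.97 ± 0.22, which was -0.99 per RNA-seq read and -1.13 with the relation with the 3 lengths taken out. Slc35a4, a member of the nucleotide sugar transporter family, was lowest, with 30 and 15 footprints against 139 and 169 RNA-seq reads (-3.77, SE 0.26, adjusted p = 4.21e-05). Both pairs of libraries placed it at least 3 log2 units below the median gene (-3.40 and -4.15). Amd1, the S-adenosylmethionine decarboxylase whose uORF is printed above, had 21 and 8 footprints on 42 and 21 RNA-seq reads (-2.32, SE 0.48, adjusted p = 0.0055), and its call was lost without the first RNA-seq library (adjusted p = 0.061).

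Genes of the integrated stress response, which are translated when initiation is limiting, were among the low ones. Atf5 was at -2.14, Ppp1r15a, a phosphatase subunit that ends the response, at -1.98 and Ddit3 (CHOP) at -1.98. Atf4, the main transcription factor of the response, had 452 and 458 footprints on 285 and 356 RNA-seq reads, a TE of -1.38 (SE 0.11, adjusted p = 7.62e-05), or 0.385 times that of the median gene. Mief1, a mitochondrial fission factor whose upstream ATG is shown above, was at -1.06, and Ibtk, Rnaseh1, Cebpa, Azin1 and Cebpb lay between -0.99 and -0.69. Cebpa and Rnaseh1 missed the threshold without some of the libraries. Ppp1r15b (-0.47) and Eprs (-0.33, but 0.55 per RNA-seq read) passed it in the 4 libraries together but missed it whichever library was left out.

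Not every mRNA of the list was low. Cdkn1b, the cell cycle inhibitor p27, had 375 and 331 footprints on 143 and 160 RNA-seq reads and lay 2.90-fold above the median gene, but on a 3′ UTR of 3439 bases, and per RNA-seq read it lay below (log2 -0.40). Ifrd1, whose upstream ATG is shown above, had 962 and 937 footprints on 186 and 252 RNA-seq reads and lay 1.79-fold above (log2 0.51 per RNA-seq read). Mdm2 (-0.05) and Bace1 (0.12) did not pass the test. Of the 12 members with a single RefSeq window 5 had an ATG in its first 50 bases, and those 5 had values from -2.32 (Amd1) to 0.84 (Ifrd1).

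**Figure D5:**
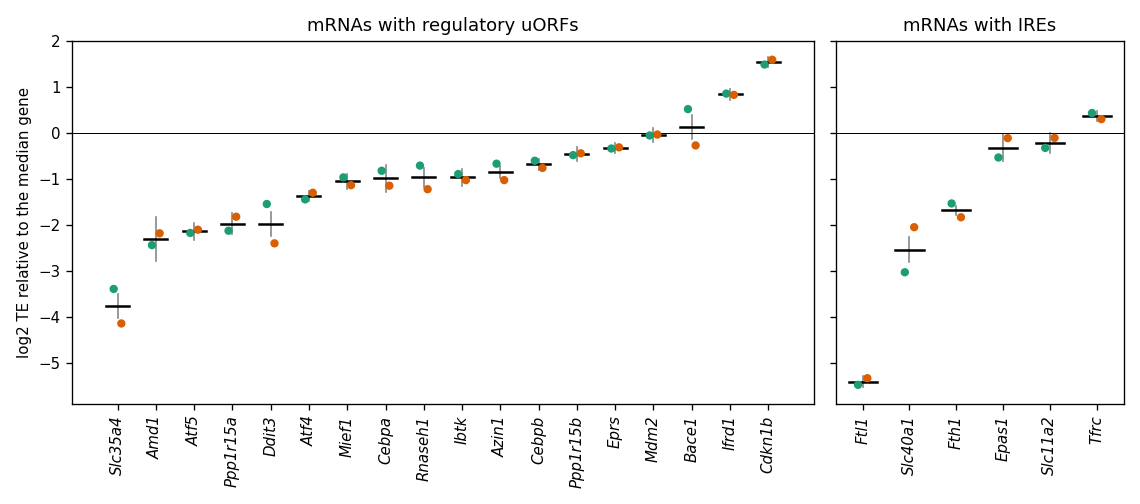
Log2 TE relative to the median gene (vertical) of the mRNAs with known regulatory uORFs (left, 18 genes) and with iron-responsive elements (right, 6 genes), in order of TE, with points for replicate number 1 (green) and 2 (orange), a bar at limma's estimate and a line for its SE. Slc35a4 (-3.77) and Ftl1 (-5.41) are lowest, and Ifrd1, Cdkn1b and Tfrc are the genes called above the median gene.

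Iron-responsive elements are hairpins that iron regulatory proteins bind. In the 5′ leader, as in ferritin, binding is known to block initiation, and in the 3′ UTR, as in the transferrin receptor Tfrc, to stabilise the mRNA. Of 6 mRNAs, 3 lay below the median gene and 1 above (median -1.01 ± 0.043, SD, n = 2 pairs), and both ferritin mRNAs were low. Ftl1, the light chain, had 11.9 and 14.1 RPKM of footprints and 164 and 180 RPKM of RNA (-5.41, SE 0.13, adjusted p = 1.65e-06), and Fth1, the heavy chain, 774 and 640 RPKM of footprints and 663 and 700 RPKM of RNA (-1.69, SE 0.10, adjusted p = 2.83e-05). Ferritin genes also have many near copies, so that the limit on shared reads applies to them. Slc40a1, the iron exporter ferroportin, was at -2.54. Tfrc was above the median gene (0.36, adjusted p = 0.023), a call lost without 3 of the 4 libraries in turn. Slc11a2 and Epas1 had values of -0.22 and -0.33 and did not pass.

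Polyamine genes were mostly low as well, though Amd1 and Azin1 belong to the uORF list too. Of 8, 5 lay below the median gene and 1 above (median -0.82 ± 0.11). Amd1 was the lowest (-2.32, a call lost without the first RNA-seq library, as given above). Odc1, which makes putrescine, was at -1.50, Sat1, which acetylates polyamines for export, at -1.83, Azin1, which frees Odc1 from its antizyme, at -0.85 and the antizyme Oaz1, whose translation needs a frameshift, at -0.79. Sms, the spermine synthase, was the member above (0.79). Of 17 selenoproteins, which decode a UGA codon as selenocysteine, 4 lay above and 7 below. Selenok (2.30) was highest and Sephs2 (-1.85) lowest, and Gpx4, the lipid peroxidase, was at -1.19.

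The study concerns the ER stress sensor IRE1α, coded by Ern1. Ern1 had 159 and 114 footprints and 69 and 97 RNA-seq reads in the PBS libraries. Its TE was -0.63 (SE 0.21, adjusted p = 0.037), or 0.648 times that of the median gene, and the call was lost when any of the 4 libraries was left out (log2 -0.76 to -0.49, adjusted p up to 0.23). Xbp1, whose mRNA IRE1α splices, was at -1.19 (adjusted p = 0.0010), on an entry with no annotated UTR. Per RNA-seq read their order turned, with -0.91 for Ern1 and -0.21 for Xbp1. The Ern1 entry has a 3′ UTR of 3892 bases, however, which lowers its value on that scale by construction. Atf6, another ER stress sensor, was at 0.65, but on a 3′ UTR of 5205 bases and at -0.22 per RNA-seq read, and Sel1l, a scaffold of ER-associated degradation, at 0.57. The call of Atf6 was lost without either footprint library and that of Sel1l without any of the 4 libraries. Eif2ak3 (PERK, -0.45), Syvn1 (-0.05), Os9 (0.08), Cgas (0.07), Tbk1 (-0.39) and Irf3 (0.33) did not pass.

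Genes of the disease model spread around the median gene. The list of PDAC drivers and keratins had 4 above and 2 below of 9. Cdkn2a (1.31) and Trp53 (0.72), both tumour suppressor genes, lay above, as did Krt8 (1.35) and Krt19 (0.88). The line comes from mice with a mutant Trp53 allele, and the values do not tell alleles apart. Smad4, which relays TGF-beta signals, had a TE of -0.48 and Yap1, a coactivator of the Hippo pathway, of -0.47, both below the median gene, and both calls were lost without some of the libraries.

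On the ratio of RPKM, the relations with length were also present in the libraries of Cis-treated cells. These share no library with the PBS values, but their ratios were divided by the same lengths. Whatever the lengths put into the ratio would recur there, and footprints per RNA-seq read were not compared for Cis. Spearman's rho of TE and coding length was -0.421 ± 0.002 (SD, n = 2 pairs) at 6 h and -0.455 ± 0.010 at 21 h, beside -0.408 ± 0.018 with PBS. TE with PBS and with Cis correlated at a rho of 0.930 across 9597 genes at 6 h and 0.915 across 9461 genes at 21 h. SR proteins and hnRNPs had medians of 1.18 at 6 h and 1.20 at 21 h and mRNAs with uORFs -0.87 and -0.88. The medians of the 10 mitochondrially encoded mRNAs were -1.19 at 6 h and -0.01 ± 0.046 at 21 h, and no test of that difference was made.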

How the data were processed

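The values deposited by the authors were RPKM for each library, without pooling. Per the submitters' processing notes the tools were cutadapt and STAR with build GRCm39, and versions and the treatment of multimapping reads are not given in the sources used here. Footprints of 25-35 nt came from lysates with cycloheximide digested by RNase I. Multiplied by length, 100% of the RPKM values were whole reads (within 0.01 of a read), which gave depth (counting error only, no molecular identifiers). Leader, coding and 3′ UTR lengths came from the row identifiers.

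Libraries of an assay were brought to a common scale with median-of-ratios factors (0.991 to 1.009), RNA-seq RPKM was multiplied by 3.30, the median ratio, and 0.5 was added. limma 3.58.1 in R 4.3.3 (lmFit, eBayes with a trend) tested footprints minus RNA-seq minus the median gene, two-sided, with Benjamini-Hochberg adjustment over 10061 genes and a threshold of 0.05. A fold on this scale understates low genes. Lists, length relations and correlations are descriptions. The script was tested on simulated data. The variance between replicate libraries was 3.97 (footprints) and 1.51 (RNA-seq) times that of read sampling alone (chi-square per degree of freedom).

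The members, lists and tests were chosen with earlier results of these data known. Genes named are the 10 highest and 10 lowest with at least 100 RNA-seq reads, the 10 with most footprints, the extremes of each list, members of lists under known translational control, the unfolded protein response list and genes with over 1% of RNA-seq reads. Promoter windows are from RefSeq (GRCm38.p6), and sequence features and pseudogene counts were added after seeing the data. Alternatives were other pseudocounts, filters, scalings, variance models, voom on the recovered reads, the replicate block, and each library left out. An alternative that adds 0.5 before scaling and the length-adjusted medians were chosen after seeing the data. A member of the iron list and a member of the PDAC list are not reported here and were left out of their lists.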

Additional observations from a re-analysis of the deposited data

How the results depend on the processing

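The counts above and below the median gene (3082 and 2837) stayed within 1.5 times in all alternatives but these. With a log2 TE beyond 1 required in addition they were 1549 and 1706, and with each library left out in turn they were 2233 to 2754 above and 1865 to 2531 below, where without the second footprint library 1865 lay below. A lone library was assumed to vary like the other group. Without a read filter beyond 1 RNA-seq read, 3676 lay above and 2243 below. The replicate numbers did not pair the libraries (correlation of the replicate differences of footprints and RNA-seq 0.027, over 2 pairs), and with the replicate block 3156 lay above and 2849 below. Of the named calls the block changed that of Hspa8 (log2 TE 0.26, limma adjusted p = 0.055) and no other.

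The rho of TE with leader, coding and 3′ UTR length (-0.085, -0.408 and 0.064 as means of 2 pairs) kept its sign in all alternatives but one: per read, without lengths, it was -0.219, -0.097 and -0.385. In that alternative the UTRs add RNA-seq reads but no counted footprints, so it is not neutral to length. Without a read filter it was -0.074, -0.325 and 0.044, and with 0.5 added before scaling, an alternative chosen after seeing the data, -0.096, -0.432 and 0.036. With at least 10 reads in each RNA-seq library and with at least 50 reads in all the coding value was -0.440 and -0.461, and with leaders and 3′ UTRs of at least 20 bases the leader and 3′ UTR values were -0.121 and 0.052. With each library left out the leader value was -0.093 to -0.077, the coding value -0.425 to -0.392 and the 3′ UTR value 0.058 to 0.071.

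Of 61 named genes past the threshold 47 kept their call in every alternative other than the added limit on log2 TE, 5 lost it only without a library, and the other 9 also under other settings. No named gene past the threshold changed sign in these alternatives. Per RNA-seq read, without lengths and without a test, 5 of the 61 lay on the other side of the median gene (Nopchap1, Cdkn1b, Atf6, mt-Co1 and Eprs). RNA-seq depth limits the values: the median difference between the pairs was 0.27 for all genes and 0.19 with at least 100 RNA-seq reads.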
